A study of Homo sapiens with 30 samples.

Results

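The genes of polyamine synthesis and breakdown were followed in LNCaP (an established human prostate cancer line) by RNA sequencing of 30 libraries in 10 groups of 3. The set was fixed by gene symbol and comprised 10 of the 26443 genes with values: ODC1, AMD1, SRM and SMS (synthesis), SAT1, SMOX and PAOX (catabolism), and OAZ1, OAZ2 and AZIN1 (regulators of ornithine decarboxylase). All 10 were found in both deposited tables, and all 10 passed the low-value filter in every comparison. The series lowered 4 targets. USP7 removes ubiquitin from proteins, BUB3 acts in the mitotic checkpoint, EZH2 methylates histone H3 as part of PRC2, and FOXA1 opens chromatin at luminal prostate genes.

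The pLKO experiment held a pLKO vector control, shUSP7-1, shBUB3 and shFOXA1, each taken 5 days after infection with the shRNA. The siRNA experiment held siCtrl and siEZH2, taken 4 days after transfection. The pGIPZ experiment held a pGIPZ control, shFoxA1, shFoxA1 WT (the shRNA together with HA-tagged FOXA1) and shFoxA1 K295A (the shRNA together with the HA-tagged mutant), also 5 days after infection. The stated day leaves out the third K295A library. No allele or drug besides these is named, and all groups were grown in RPMI with serum. Within each experiment the labels name a single shRNA or siRNA for each target, and replicates are not described as separate cultures. The p-values therefore measure the spread between these libraries only, which may be technical.

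Polyamines are small, positively charged molecules that bind RNA and DNA and are needed for growth. Ornithine decarboxylase (ODC1) makes putrescine from ornithine, S-adenosylmethionine decarboxylase (AMD1) supplies the aminopropyl groups, and spermidine synthase (SRM) and spermine synthase (SMS) add them in turn. Acetylation by SAT1 followed by oxidation by PAOX runs the chain backwards, and SMOX oxidises spermine directly. Antizymes (OAZ1, OAZ2) bind ODC1 protein and send it to the proteasome, while the antizyme inhibitor AZIN1 binds antizyme in its place. Prostate epithelium is known for making and secreting polyamines in large amounts, and ODC1 is a well known target of the transcription factor MYC, which binds the E-box CACGTG. Much control of ODC1, AMD1, SAT1 and antizyme acts on translation and protein stability, which RNA levels do not measure.

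RefSeq promoter windows (GRCh38.p14) of 300 bases, from 250 before to 50 after a transcript start, were matched by symbol for 7 of the 10 genes (10 windows in all). CACGTG was found in windows of 2 genes, ODC1 and SRM. These windows are shown because ODC1 and SRM were called in the same direction in the pLKO and siRNA experiments, though not with shFoxA1, as described further on. Capitals mark CACGTG, and both windows are read on the minus strand, 5′ to 3′. The SRM window is chr1:11059969-11060268, and the ODC1 window, of the downstream of its 2 listed starts, is chr2:10447963-10448262.
SRM: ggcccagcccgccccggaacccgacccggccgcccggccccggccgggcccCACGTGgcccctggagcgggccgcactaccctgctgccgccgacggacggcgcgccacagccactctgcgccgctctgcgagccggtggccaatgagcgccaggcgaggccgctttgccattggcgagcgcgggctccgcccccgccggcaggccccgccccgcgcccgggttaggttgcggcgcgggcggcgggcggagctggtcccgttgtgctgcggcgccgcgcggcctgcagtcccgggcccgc
ODC1: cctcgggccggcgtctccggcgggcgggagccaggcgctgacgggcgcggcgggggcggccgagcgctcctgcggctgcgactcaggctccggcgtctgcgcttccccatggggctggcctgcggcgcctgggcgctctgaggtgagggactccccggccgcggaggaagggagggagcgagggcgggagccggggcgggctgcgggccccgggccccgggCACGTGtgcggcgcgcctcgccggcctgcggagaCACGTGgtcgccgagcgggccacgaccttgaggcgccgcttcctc
In the SRM window the word starts 199 bases before the transcript start. The ODC1 window holds it 2 times, starting 29 bases before the transcript start and at base 6 of the transcript. Among all 35116 windows in the RefSeq table, 7.26% hold CACGTG. The words CCAAT (34.6% of all windows), TATAA (20.4%) and the forkhead words (12.1%) were searched on both strands as well. The forkhead words were TGTTTAC or TATTTAC, with TGTTTGC or else TATTTGC as variants. CCAAT was found for AMD1, OAZ1, SAT1, SMS and SRM, TATAA for AMD1, OAZ1 and ODC1, and the forkhead words in 0 of the 10 windows. SMS and OAZ2, whose changes against control also ran close together (Pearson r = 0.956, described further on), have 0 matches of CACGTG in their windows. These are matches of letters only, and their part in the changes was not tested.

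**Figure D1:**
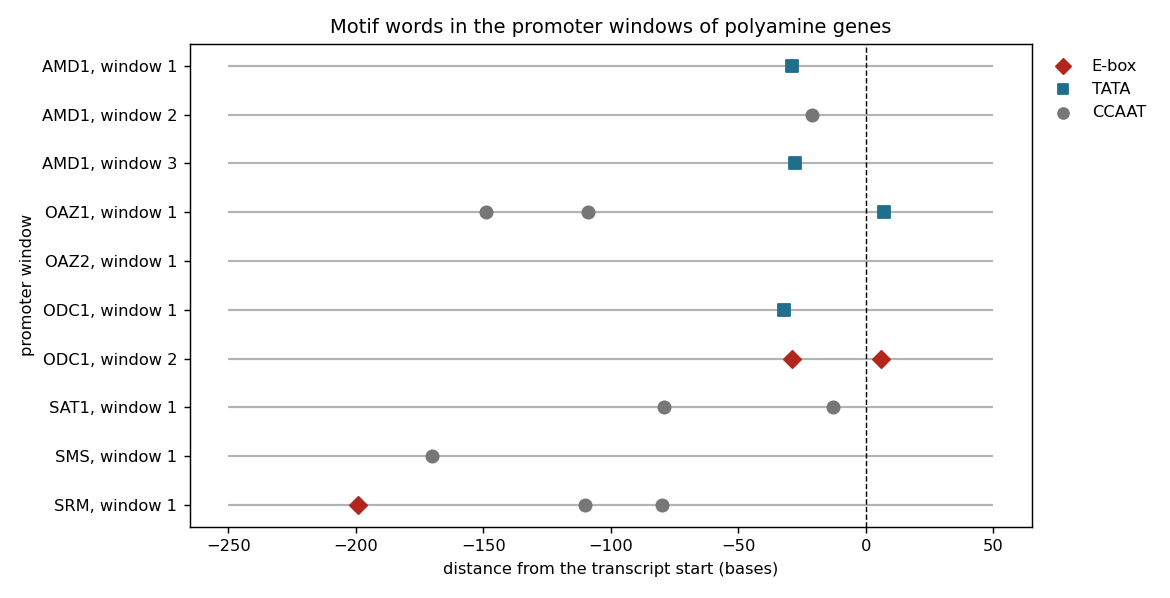
Positions of the words CACGTG (E-box), TATAA (TATA) and CCAAT in 10 promoter windows of 7 polyamine genes. The x axis is the distance from the transcript start in bases and each row is a window; CACGTG appears in a window of SRM and in window 2 of ODC1.

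Depth is known only relative to the first control library of each table, from 0.602 to 1.30 where values are FPKM and from 0.847 to 1.30 where they are RPKM. Read totals are not given, so counting intervals could not be computed. The targeted RNAs were lower in their own knockdowns: USP7 went from 28.2 ± 0.517 to 6.21 ± 0.143 FPKM (mean ± SD, n = 3 libraries, here and below), BUB3 from 36.3 ± 2.34 to 4.00 ± 0.629, EZH2 from 12.6 ± 0.908 to 4.98 ± 0.128 and FOXA1 from 116 ± 0.191 to 59.0 ± 1.68. In the pGIPZ experiment FOXA1 went from 132 ± 2.38 to 82.5 ± 1.87 RPKM and stood at 152 ± 0.899 and 151 ± 2.90 after re-expression of WT and K295A. The knockdowns also moved other targets. Of the 4 targeted genes, 3 fell after shUSP7-1 (33% of all genes did) and 4 after shFOXA1 (45.1%). After siEZH2 3 fell (43%), or 2 under median-ratio scaling. After shBUB3 2 fell (32%) and 1 rose (33.3%), and after shFoxA1 1 fell (24.2%) and 1 rose (25%). Luminal prostate markers were at a value of 1 or more for 10 of 10 genes in every library. Of the markers of other cell types, TP63 (basal), COL1A2 (stromal), PTPRC (immune) and PECAM1 (endothelial) reached at most 0.0253, 0.0135, 0.0278 and 0.0393 in any library. Others were higher, up to 7.38 for KRT14 (basal), 12.3 for COL1A1 (stromal), 34.7 for CD68 (immune) and 4.57 for VWF (endothelial). shBUB3 replicate 3 stood apart, with the highest sum of FPKM (367614, against 235344 in the lowest library).

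In the pLKO control, OAZ1 was the most abundant of the 10 RNAs per unit of length, at 506 ± 20.6 FPKM, above 99.5% of the 11841 genes at 1 FPKM or more. AMD1 followed at 192 ± 0.920 FPKM, then ODC1 at 158 ± 9.71, SAT1 at 139.8 ± 7.30, SRM at 131 ± 11.4 and SMS at 67.7 ± 3.38. OAZ2 stood at 37.5 ± 1.60 FPKM and AZIN1 at 32.0 ± 1.09. The oxidases were scarce, PAOX at 3.33 ± 0.282 FPKM and SMOX at 1.97 ± 0.165, the latter above only 11.5% of those genes. Only SAT1 and SRM overlapped between libraries among neighbours in this order. OAZ1 and AMD1 also led in siCtrl (536 ± 27.7 and 184 ± 10.8 FPKM) and in pGIPZ (562 ± 12.6 and 170.2 ± 6.36 RPKM), while in siCtrl AMD1 overlapped SRM, OAZ2 overlapped AZIN1, and PAOX overlapped SMOX. SAT1 stood below ODC1 in siCtrl, at 91.5 ± 3.88 FPKM, and above it in pGIPZ, at 161 ± 4.06 RPKM.

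**Figure D2:**
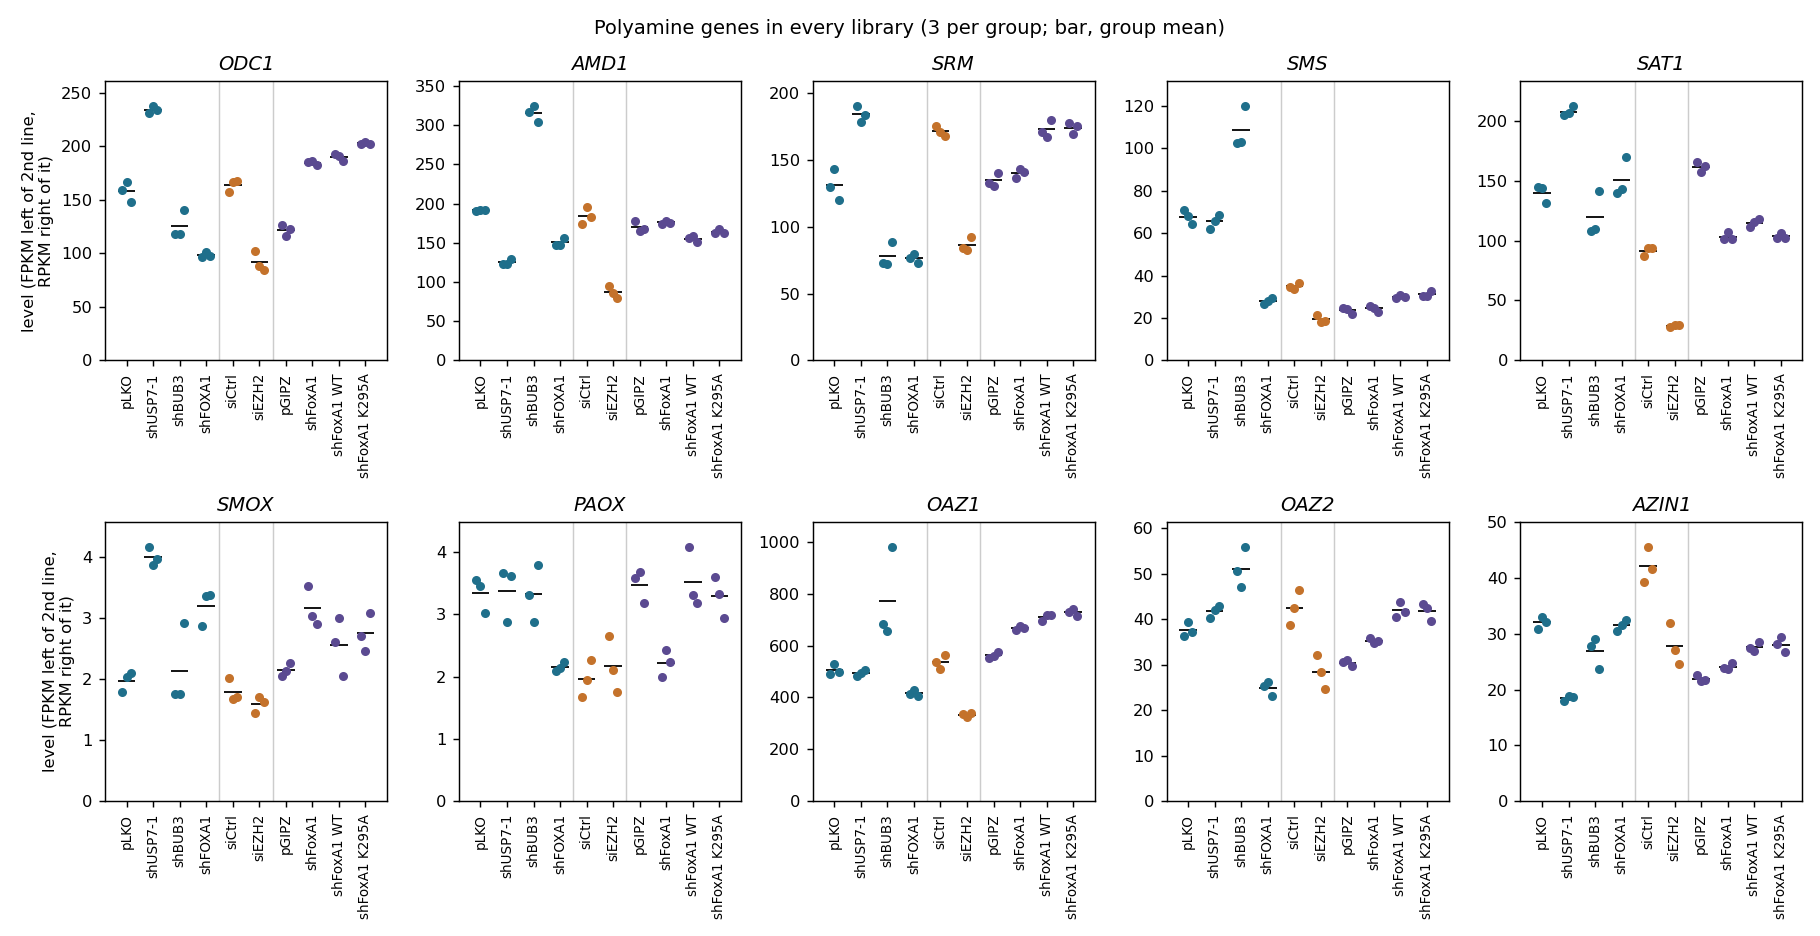
Level of each polyamine gene in every library (points, 3 per group) with the group mean (bar); the y axis is FPKM for the pLKO and siRNA groups and RPKM, normalized separately, for the pGIPZ groups to the right of the second line. The 3 siEZH2 libraries have SAT1 at 28.1 to 29.9 FPKM against 87.1 to 93.9 in siCtrl, and shBUB3 replicate 3 stands above its 2 partners for OAZ1.

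Each count of members called is set beside the share of all genes called in that direction by limma at an adjusted p under 0.05. After shUSP7-1, 4 of 10 rose (29.1% of 12524 genes did) and 2 fell (33%). After shBUB3, 4 rose (33.3%) and 3 fell (32%). These counts and those after shFOXA1 stand near the shares of all genes and are no result about the members. After shFOXA1 in the pLKO experiment, 1 rose (25.2%) and 6 fell (45.1%), and after siEZH2, 0 rose (20.3% of 11908 genes) and 8 fell (43%). The median log2 fold change of the 10 was -0.75 after siEZH2, beside -0.16 for all genes, and -0.40 after shFOXA1, beside -0.15. Under median-ratio scaling these member medians were -0.55 and -0.24, beside 0.01 for all genes in both. Without scaling, the member median was 0.08 after shUSP7-1 and 0.03 after shBUB3, beside -0.02 and 0.01 for all genes. In bulk libraries, fewer cells that express a gene and less RNA per cell cannot be told apart.

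**Figure D3:**
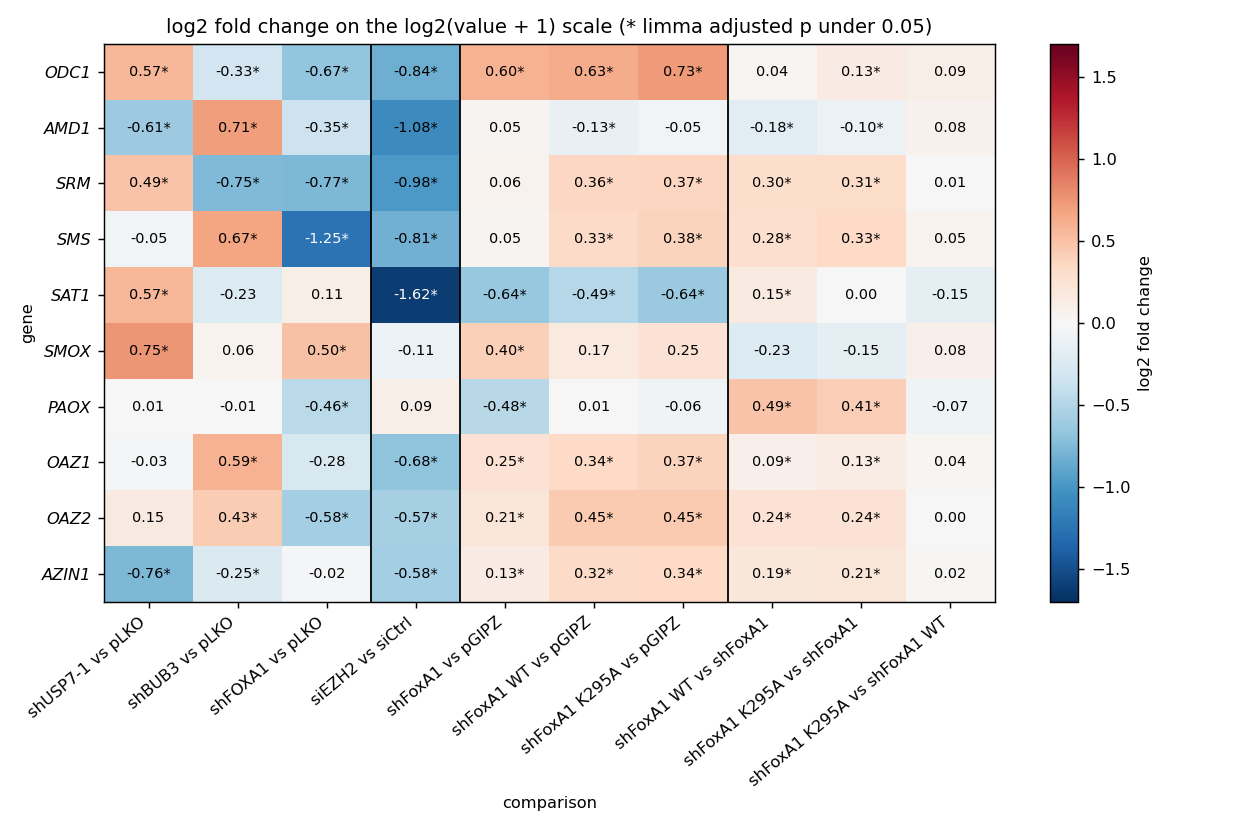
log2 fold changes of the 10 polyamine genes (rows) in 10 comparisons (columns), on the log2(value + 1) scale; red is higher, blue is lower, and an asterisk marks a limma adjusted p under 0.05. The siEZH2 column holds 8 falls, from -0.57 to -1.62, and the K295A against WT column holds no call.

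ODC1 (chromosome 2, 10439968 to 10448504, minus strand, GRCh38), the entry enzyme of the pathway, rose after shUSP7-1 and fell after shBUB3, shFOXA1 and siEZH2. It stood at 159.6, 167 and 148 FPKM in the pLKO libraries and at 232, 237 and 234 after shUSP7-1, which do not overlap, a log2 fold change of 0.57 ± 0.074 (± SE, limma adjusted p = 3.69e-05). The shBUB3 libraries, at 118, 119 and 141 FPKM, all lay below the control (-0.33 ± 0.074, limma adjusted p = 0.00198). Those with shFOXA1 were the lowest of that experiment, at 96.3, 102 and 98.0 FPKM (-0.67 ± 0.074, limma adjusted p = 6.48e-06). After siEZH2, ODC1 went from 157, 167 and 168 FPKM to 102, 88.3 and 84.8, again without overlap (-0.84 ± 0.079, limma adjusted p = 9.56e-06).

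AMD1 (chromosome 6, 110874770 to 110895713, plus strand), the other rate-setting decarboxylase, went against ODC1 in shUSP7-1 and shBUB3. Its pLKO libraries were nearly alike, at 191, 192 and 192 FPKM. With shUSP7-1 they fell to 124, 122 and 129 (-0.61 ± 0.051, limma adjusted p = 9.54e-07), and with shBUB3 they rose to 316, 324 and 305 (0.71 ± 0.051, limma adjusted p = 2.55e-07), all outside the control range. With shFOXA1 AMD1 stood at 148, 147 and 157 FPKM (-0.35 ± 0.051, limma adjusted p = 7.66e-05), a difference of -0.16 under median-ratio scaling (limma adjusted p = 0.0102). The deepest fall came with siEZH2, from 174, 195 and 183 to 95.0, 85.6 and 80.1 FPKM (-1.08 ± 0.079, limma adjusted p = 1.81e-06). Genome annotation lists 4 pseudogenes named after AMD1, 2 after SRM and 1 after ODC1, and reads that fit both copies are uncertain in all values of these genes.

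SRM (chromosome 1, 11054584 to 11060024, minus strand), which makes spermidine, was called in the same direction as ODC1 in the 3 pLKO knockdowns and siEZH2, and did not pass with shFoxA1, where ODC1 rose. Its pLKO values were 129.8, 143 and 120.4 FPKM, and after shUSP7-1 they were 190.1, 178 and 184, above every control (0.49 ± 0.086, limma adjusted p = 0.000386). After shBUB3 they were 72.8, 72.0 and 88.7 (-0.75 ± 0.086, limma adjusted p = 1.34e-05) and after shFOXA1 76.8, 79.5 and 73.0 (-0.77 ± 0.086, limma adjusted p = 7.98e-06), so the last 2 groups overlap each other and lie below the control. After siEZH2 SRM went from 176, 171 and 168 FPKM to 84.3, 82.6 and 92.3 (-0.98 ± 0.066, limma adjusted p = 1.09e-06). Over the 21 libraries that are not controls, deviations of ODC1 and SRM from the mean of their own control correlated at Pearson r = 0.96. These points share controls and group shifts, so the value is a description.

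SMS (chromosome X, 21940573 to 21994835, plus strand), which makes spermine, had its own pattern. It stood at 71.0, 67.9 and 64.2 FPKM in pLKO and at 62.1, 65.8 and 68.7 after shUSP7-1, where the groups overlap (-0.05, 95% interval -0.20 to 0.11, limma adjusted p = 0.586). With shBUB3 it rose to 102, 103 and 119.7 (0.67 ± 0.071, limma adjusted p = 7.15e-06), and with shFOXA1 it fell to 26.4, 27.9 and 29.2 (-1.25 ± 0.071, limma adjusted p = 2.42e-08). That was the largest change of any of the 10 genes in the pLKO experiment against its control. With siEZH2 SMS fell from 34.7, 33.6 and 36.4 to 21.6, 18.3 and 18.7 FPKM (-0.81 ± 0.080, limma adjusted p = 1.27e-05).

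SAT1 (chromosome X, 23783173 to 23786226, plus strand), the acetyltransferase that starts polyamine breakdown and export, showed the largest change of the 10 genes against an own control. In siCtrl it stood at 87.1, 93.9 and 93.7 FPKM and after siEZH2 at 28.1, 29.9 and 29.3, a log2 fold change of -1.62 ± 0.065 (limma adjusted p = 5.73e-08). It rose after shUSP7-1, from 144, 144 and 131 FPKM in pLKO to 205, 206 and 212 (0.57 ± 0.10, limma adjusted p = 0.000506). No library of either group overlapped with its control. After shBUB3 it stood at 108, 109.6 and 141 FPKM, with replicate 3 inside the control range (-0.23 ± 0.10, limma adjusted p = 0.0669). Without that library the difference was -0.36 and passed (limma adjusted p = 0.00106), as did -0.26 under median-ratio scaling (limma adjusted p = 0.0475). After shFOXA1, values of 140.0, 143 and 169.7 FPKM overlapped the control (0.11, 95% interval -0.12 to 0.33, limma adjusted p = 0.382).

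The oxidases stayed low throughout. SMOX (chromosome 20, 4120980 to 4187747, plus strand), the spermine oxidase, went from 1.78, 2.03 and 2.09 FPKM in pLKO to 4.16, 3.87 and 3.95 after shUSP7-1 (0.75 ± 0.12, limma adjusted p = 0.000202) and to 2.87, 3.35 and 3.38 after shFOXA1 (0.50 ± 0.12, limma adjusted p = 0.00294), both above every control. After shBUB3 it stood at 1.75, 1.75 and 2.91, and the difference of 0.06 became -0.11 without replicate 3 (limma adjusted p = 0.678 and 0.182). Values this near the pseudocount of 1 understate the fold. PAOX (chromosome 10, 133379234 to 133391694, plus strand), which oxidises acetylated polyamines, fell after shFOXA1, from 3.54, 3.45 and 3.01 to 2.09, 2.14 and 2.24 FPKM (-0.46 ± 0.094, limma adjusted p = 0.000973), and was lower there than in shUSP7-1 (-0.47) and shBUB3 (-0.45), where it did not pass against the control. PAOX overlaps AL360181.3 on its own strand. Neither oxidase passed after siEZH2, with differences of -0.11 (95% interval -0.33 to 0.12) for SMOX and 0.09 (-0.19 to 0.38) for PAOX.

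Among the regulators, the antizymes rose after shBUB3 and fell after siEZH2. OAZ1 (chromosome 19, 2269509 to 2273490, plus strand) went from 491, 529.6 and 498 FPKM in pLKO to 684, 656 and 979.8 after shBUB3 (0.59 ± 0.13, limma adjusted p = 0.00155). Replicate 3 was the highest, and without it the difference was 0.40. OAZ2 (chromosome 15, 64687573 to 64703281, minus strand) went from 36.2, 39.3 and 37.1 to 50.5, 47.0 and 55.8 FPKM after shBUB3 (0.43 ± 0.069, limma adjusted p = 0.000179) and to 25.3, 26.1 and 23.0 after shFOXA1 (-0.58 ± 0.069, limma adjusted p = 1.29e-05). Both antizymes fell after siEZH2, OAZ1 from 536, 508 and 563 to 336, 323 and 339.9 FPKM (-0.68 ± 0.066, limma adjusted p = 1.04e-05) and OAZ2 from 38.8, 42.5 and 46.4 to 32.2, 28.4 and 24.7 (-0.57 ± 0.10, limma adjusted p = 0.000729). After shUSP7-1 neither passed, and OAZ2, at 40.2, 42.1 and 43.0 FPKM, lay above its controls without overlap (0.15 ± 0.069, limma adjusted p = 0.0800). OAZ1 after shFOXA1, at 415, 430.2 and 406 FPKM, also missed the threshold without overlap (-0.28 ± 0.13, limma adjusted p = 0.0670). In a fit of the 2 groups alone, both passed (limma adjusted p = 0.0104 for OAZ2 after shUSP7-1 and 0.000498 for OAZ1 after shFOXA1), while median-ratio scaling reduced OAZ1 after shFOXA1 to -0.09 (limma adjusted p = 0.568) and OAZ2 after siEZH2 to -0.38 (limma adjusted p = 0.00616). OAZ1 overlaps AC005258.1 on its own strand and JSRP1 on the other, and OAZ2 overlaps 3 antisense genes, whose reads may not be told apart.

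AZIN1 (chromosome 8, 102826357 to 102893864, minus strand), which frees ODC1 from antizyme, fell after shUSP7-1, a group in which ODC1 rose. It went from 30.9, 33.1 and 32.1 FPKM in pLKO to 18.0, 18.9 and 18.7 (-0.76 ± 0.068, limma adjusted p = 1.86e-06), with no overlap. After shBUB3 it stood at 27.8, 29.2 and 23.7 (-0.25 ± 0.068, limma adjusted p = 0.00723, and -0.16 without replicate 3) and after shFOXA1 at 30.5, 31.6 and 32.4, inside the control range (-0.02, 95% interval -0.17 to 0.13). After siEZH2 it fell from 39.2, 45.5 and 41.6 to 31.9, 27.1 and 24.6 FPKM (-0.58 ± 0.098, limma adjusted p = 0.000479). ODC1 fell as well after shBUB3 and siEZH2. Against pGIPZ both genes rose with shFoxA1, WT and K295A (0.13, 0.32 and 0.34 for AZIN1). AZIN1 overlaps AZIN1-AS1 and 2 long noncoding genes on the other strand.

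The differences between the pLKO knockdowns were tested directly. Between shUSP7-1 and shBUB3, 9 of 10 genes differed (65.2% of all genes did), with SRM 1.24 and ODC1 0.90 higher in shUSP7-1 on the log2 scale and AMD1 1.33 and SMS 0.72 higher in shBUB3. The exception was PAOX (0.02, 95% interval -0.19 to 0.22). Between shFOXA1 and shUSP7-1, 8 differed (70.9%), among them SRM (-1.26), ODC1 (-1.24) and SMS (-1.20), lower in shFOXA1, and AZIN1 (0.73), higher there. Between shFOXA1 and shBUB3, 9 differed (73.4%), most of all SMS (-1.92) and AMD1 (-1.06). SRM did not pass there (-0.02, 95% interval -0.21 to 0.17), although it was 0.19 under median-ratio scaling (limma adjusted p = 0.0783), a setting that also ended the call for ODC1 (limma adjusted p = 0.139). Most genes of the table were called in each of the 3, and the member counts are read against that. Of the called genes, 39.6% were higher in shFOXA1 than in shUSP7-1 and 37.6% than in shBUB3, which median-ratio scaling moved to 52.1% and 51%.

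In siEZH2, where 8 members fell, all 10 luminal prostate markers fell as well (9 under median-ratio scaling), and their sum was 2513 to 2585 FPKM over the siCtrl libraries and 708 to 831 over those of siEZH2. The summed stromal markers were 2.87 to 3.62 and 9.95 to 13.3 FPKM, with 1 of 4 at 1 or more, COL1A1. The part of these markers in the result was not tested. In the pLKO experiment that sum was 2491 to 2542 FPKM in the control, 1365 to 1429 with shUSP7-1, 1654 to 1906 with shBUB3 and 1809 to 1903 with shFOXA1. A call of more falls than rises was common to all genes in siEZH2 and shFOXA1, where 32.1% and 35.9% of called genes were higher. Median-ratio scaling, which centres genes on a typical ratio of 1, shifted the all-gene median from -0.16 to 0.01 and from -0.15 to 0.01 and these shares to 50.3% in both. The 8 falls after siEZH2 and the 6 after shFOXA1 passed under this scaling too. With it SAT1 (0.29, limma adjusted p = 0.0245) and AZIN1 (0.16, limma adjusted p = 0.0345) also passed as higher after shFOXA1, AZIN1 with a turned sign.

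The pGIPZ experiment asked the FOXA1 question with another vector and added re-expression. Against pGIPZ, shFoxA1 raised 5 of the 10 genes (25% of 12563 genes rose) and lowered 2 (24.2%). ODC1 rose from 126, 117 and 123 RPKM to 186, 187 and 182 (0.60 ± 0.028, limma adjusted p = 7.29e-09), and SAT1 fell from 165, 157 and 162 to 102, 107 and 101 (-0.64 ± 0.032, limma adjusted p = 1.37e-08), neither with overlap. OAZ1 rose from 551, 559 and 576 to 660.2, 674 and 668 RPKM (0.25 ± 0.022, limma adjusted p = 2.03e-06). OAZ2 (0.21), SMOX (0.40) and AZIN1 (0.13) rose and PAOX fell (-0.48), from 3.58, 3.67 and 3.18 to 2.00, 2.43 and 2.24 RPKM. AZIN1 lost its call without shFoxA1 replicate 3 (limma adjusted p = 0.0572) or without pGIPZ replicate 2 (0.0512). AMD1, SRM and SMS did not pass, with intervals of -0.01 to 0.11, -0.02 to 0.13 and -0.07 to 0.17. The summed immune markers were 32.3 to 35.0 RPKM in shFoxA1 and 12.7 to 14.8 in pGIPZ, with 1 of 4 markers at 1 or more, CD68 at up to 34.7, and their part in these results was not tested.

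The FOXA1 knockdowns of the 2 experiments went opposite ways for several members. ODC1 fell with shFOXA1 by 0.67 on the log2 scale and rose by 0.60 with shFoxA1. For ODC1, AMD1, SRM, SAT1, OAZ1 and OAZ2, every library of the one knockdown lay on the other side of its control mean from every library of the other. Both differences passed for ODC1 and OAZ2, and 1 of the 2 for the other 4. The share of all genes that were opposite in this way was not computed, so the count is no result about the members. The all-gene median was -0.15 after shFOXA1 and 0.00 after shFoxA1. Some distances were small: SAT1 lay at 0.0037 in shFOXA1 replicate 1, and AMD1 and SRM did not pass with shFoxA1 (0.05 and 0.06). Under median-ratio scaling, OAZ1 after shFOXA1 was -0.09 (limma adjusted p = 0.568) and AMD1 -0.16. SMOX was higher and PAOX lower than the control in all 6 libraries, by 0.50 and 0.40 for SMOX and by 0.46 and 0.48 for PAOX, and these 4 differences passed. FOXA1 RNA itself fell by 0.96 and 0.67. The tables are normalized separately and the vectors and shRNA labels differ, so the difference was not tested.

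**Figure D4:**
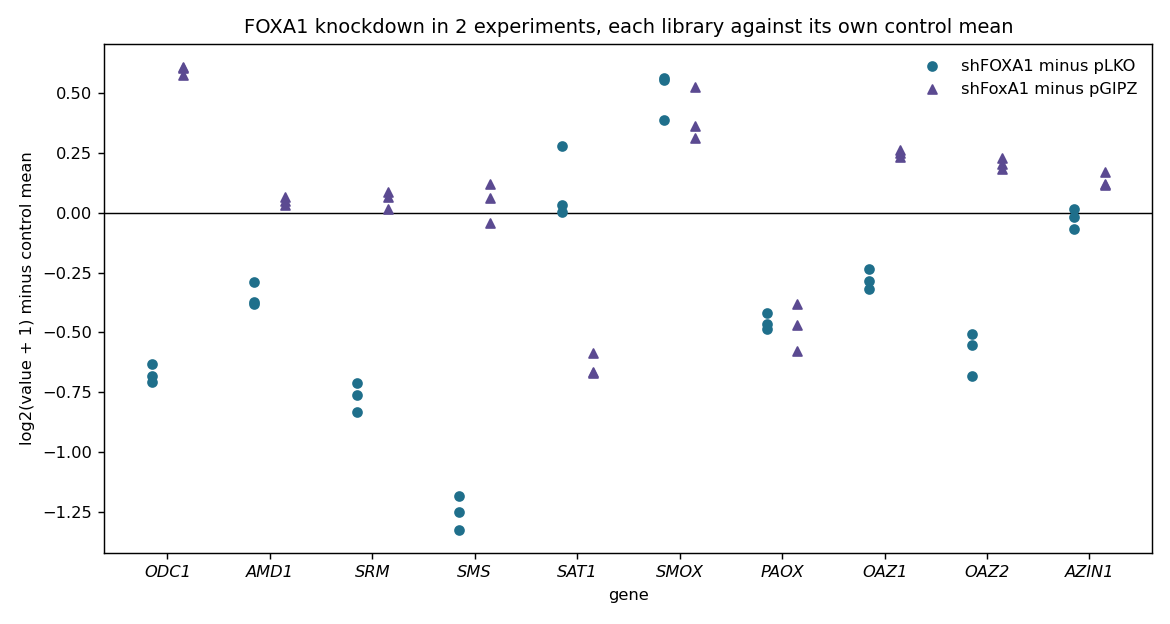
Each FOXA1 knockdown library minus the mean of its own control, on the log2(value + 1) scale (y axis), for the 10 polyamine genes (x axis); circles are the pLKO experiment and triangles the pGIPZ experiment, 3 libraries each. ODC1 lies at -0.71 to -0.63 in the former and at 0.58 to 0.61 in the latter, while SMOX and PAOX lie on the same side in both.

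Re-expression of FOXA1 was compared with shFoxA1 and with the pGIPZ control. Against shFoxA1, WT had 7 genes higher (36.6% of all genes) and 1 lower (18.9%), and K295A had 7 higher (38.7%) and 1 lower (18.3%). PAOX again overlapped the pGIPZ libraries, at 4.08, 3.31 and 3.19 RPKM with WT (0.49 ± 0.090 against shFoxA1, limma adjusted p = 0.000695) and at 3.60, 3.33 and 2.94 with K295A (0.41 ± 0.090, limma adjusted p = 0.00211). ODC1 stayed above every pGIPZ library and stood at 193, 191 and 186 RPKM with WT (0.04 against shFoxA1, 95% interval -0.02 to 0.10) and at 203, 204 and 202 with K295A (0.13 ± 0.028, limma adjusted p = 0.00144). SAT1 rose with WT to 111, 115 and 118 RPKM (0.15 ± 0.032, limma adjusted p = 0.00176). With K295A it stood at 102, 106 and 102, within the shFoxA1 range (0.00, 95% interval -0.07 to 0.07). All libraries of both groups lay below pGIPZ for SAT1. The summed luminal markers were 2782 to 2829 RPKM in pGIPZ, 2464 to 2509 in shFoxA1, 2043 to 2094 with WT and 1975 to 1994 with K295A, and their part in these results was not tested.

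SRM and SMS, which had not passed with shFoxA1 alone, were higher after re-expression than in either. SRM stood at 171, 167 and 180.1 RPKM with WT and at 178, 169 and 175 with K295A, against 136, 143 and 141 in shFoxA1 (0.30 ± 0.035 and 0.31 ± 0.035, limma adjusted p = 1.79e-05 and 1.3e-05). SMS stood at 29.3, 30.8 and 29.9 and at 30.6, 30.3 and 32.7, against 25.9, 24.8 and 23.0 (0.28 ± 0.054 and 0.33 ± 0.054, limma adjusted p = 0.000965 and 0.000259). AMD1 was lower than in shFoxA1, at 156, 159 and 151 RPKM with WT (-0.18 ± 0.029, limma adjusted p = 0.000231) and at 162, 167 and 162 with K295A (-0.10 ± 0.029, limma adjusted p = 0.00948). Rises of OAZ1, OAZ2 and AZIN1 between 0.09 and 0.24 passed with both constructs. Under median-ratio scaling, the WT calls for SAT1 (0.05) and AZIN1 (0.09) were lost, OAZ1 turned to -0.01, and ODC1 (-0.06, limma adjusted p = 0.0478) and SMOX (-0.31, limma adjusted p = 0.0251) became lower, which left 4 higher and 3 lower. Under the same scaling, the K295A calls for ODC1 (0.02), OAZ1 (0.01) and AZIN1 (0.09) were lost and SAT1 became lower (-0.11, limma adjusted p = 0.00563), which left 4 higher and 2 lower. AMD1 then stood at -0.28 with WT and -0.22 with K295A, SMS at 0.18 and 0.22, OAZ2 at 0.14 and 0.12, and SRM with K295A at 0.19.

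Against pGIPZ, 6 of 10 genes were higher with WT (33.7% of all genes) and 2 lower (11.8%), and with K295A 6 were higher (37.8%) and 1 lower (12.8%). The 6 were the same in both: ODC1 (0.63 and 0.73), SRM (0.36 and 0.37), SMS (0.33 and 0.38), OAZ1 (0.34 and 0.37), OAZ2 (0.45 and 0.45) and AZIN1 (0.32 and 0.34). These comparisons share the 3 pGIPZ libraries. SAT1 was lower in both (-0.49 and -0.64), and AMD1 was lower with WT (-0.13, limma adjusted p = 0.0032). Under median-ratio scaling AMD1 was lower with both, at -0.24 with WT and -0.18 with K295A (limma adjusted p = 1.14e-05 and 9.62e-05), and SRM, OAZ1 and AZIN1 with K295A stood at 0.24, 0.25 and 0.22. Of all genes called, 74% and 74.7% were higher here and 65.9% and 67.9% against shFoxA1. Median-ratio scaling shifted the all-gene median from 0.10 to 0.00 and from 0.11 to 0.01 against pGIPZ, and from 0.08 and 0.10 to 0.00 against shFoxA1. The shares of higher genes became 47.5%, 48.3%, 48.8% and 48.3%. ODC1, SRM, SMS, OAZ1, OAZ2 and AZIN1 stayed called as higher than in pGIPZ under it.

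K295A and WT were compared to see what the mutant changes. No member passed (limma, 0 of 10), beside 0.0876% of all genes higher and 0.0955% lower, or 23 genes of 12563. At an unadjusted p under 0.05 there were 3 members and 1310 genes. The 3 were SAT1 (-0.15, 95% interval -0.22 to -0.08, limma adjusted p = 0.128), ODC1 (0.09, 0.03 to 0.16, limma adjusted p = 0.240) and AMD1 (0.08, 0.01 to 0.14, limma adjusted p = 0.374). SAT1 passed under median-ratio scaling (-0.16, limma adjusted p = 0.0486), which moved the share of higher genes among those called from 47.8% to 33.3%. For the other 7 the intervals reached from -0.27 to 0.31 at the widest.

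Genes around the pathway were taken from lists, described by counts. These are read against the shares of all genes given above, which for falls were 33% after shUSP7-1, 32% after shBUB3, 45.1% after shFOXA1 and 43% after siEZH2, and for rises 29.1%, 33.3%, 25.2% and 20.3%. With shFoxA1 25% rose and 24.2% fell. Against pGIPZ, 33.7% rose and 11.8% fell with WT, and 37.8% and 12.8% with K295A. Against shFoxA1, 36.6% rose and 18.9% fell with WT, and 38.7% and 18.3% with K295A. In the arginine and ornithine list, 6 of 10 tested genes fell and 3 rose after shFOXA1, and 6 of 9 fell and 2 rose after siEZH2 (5 and 3 under median-ratio scaling). The list's median log2 fold changes were -0.76 and -0.52, beside -0.15 and -0.16 for all genes. ARG2, the mitochondrial arginase that makes ornithine, fell from 71.3 to 5.02 FPKM after shFOXA1 (-3.59 ± 0.050, limma adjusted p = 1.65e-12), from 61.7 to 12.4 after siEZH2 (-2.24 ± 0.12, limma adjusted p = 2.31e-07) and from 45.8 to 20.1 RPKM after shFoxA1 (-1.15 ± 0.038, limma adjusted p = 3.6e-10). With WT and K295A it stood at 81.6 and 78.0 RPKM, 1.97 and 1.90 above shFoxA1. So ARG2 fell in both FOXA1 knockdowns, unlike ODC1, which uses its product. In shFoxA1, 5 of 9 tested genes of this list fell and 2 rose. The 2 were OAT and ASS1, at 0.91 to 1.11 and 1.07 to 1.13 with 1 library left out. Against pGIPZ, 4 rose and 1 fell with WT, and 5 and 1 with K295A (3 and 1 in both under median-ratio scaling). After shUSP7-1, 6 of 10 fell and 1 rose, ARG1, the liver-type arginase, from 0.456 to 8.63 FPKM (2.73 ± 0.082, limma adjusted p = 3.05e-10). After shBUB3, 6 fell and 1 rose, and ALDH18A1, which makes a precursor of proline and ornithine, went from 44.3 to 5.04 FPKM (-2.91 ± 0.051, limma adjusted p = 3.93e-11).

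The methionine cycle and methylthioadenosine salvage list holds the enzymes that make S-adenosylmethionine and recycle the by-product of SRM and SMS. Of 13 tested genes, 8 fell and 3 rose after shUSP7-1, 9 and 2 after shBUB3, 8 and 1 after shFOXA1, and 10 and 2 after siEZH2. Its medians were -0.35, -0.60, -0.25 and -0.56, beside -0.02, 0.01, -0.15 and -0.16 for all genes. Under median-ratio scaling the falls and rises were 6 and 2 after shFOXA1 and 8 and 2 after siEZH2. MTAP, the first enzyme of the salvage, went from 10.0 FPKM to 3.57, 3.54 and 3.42 in the pLKO knockdowns (-1.27, -1.28 and -1.32). ENOPH1, a later salvage enzyme, fell from 39.1 to 10.0 after shUSP7-1 (-1.87 ± 0.075) and to 13.7 after shBUB3 (-1.45 ± 0.075). GNMT, which consumes S-adenosylmethionine, fell after shFOXA1 (-1.69) and siEZH2 (-1.08). Against pGIPZ, 7 rose and 3 fell with shFoxA1, and 10 rose and 0 fell with WT and with K295A. These counts became 5 and 3, 5 and 2, and 7 and 1 under median-ratio scaling.

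Of 8 tested genes of polyamine transport, 5 fell and 0 rose after shUSP7-1, 4 and 1 after shBUB3, 7 and 0 after shFOXA1, and 5 and 0 after siEZH2. Under median-ratio scaling the counts for shFOXA1 and siEZH2 were 5 and 1, and 4 and 1. The medians were -0.32, -0.23, -0.75 and -0.49. SLC22A3, an organic cation transporter, fell in all of them, from 13.0 FPKM to 4.52, 6.54 and 2.73 in the pLKO knockdowns (-1.35, -0.90 and -1.91) and from 56.7 to 16.1 after siEZH2 (-1.76 ± 0.067, limma adjusted p = 4.31e-08). In shFoxA1 5 of 7 fell and 1 rose (24.2% and 25% of all genes), and against shFoxA1 6 rose and 1 fell with WT and with K295A, with medians of -0.50, 0.55 and 0.57. Of the other polyamine enzymes and regulators, AOC1, the secreted diamine oxidase, rose from 0.452 to 6.03 RPKM with shFoxA1 (2.27 ± 0.15, limma adjusted p = 1.39e-07) and stood at 0.964 with WT and 0.833 with K295A (-1.84 and -1.96 against shFoxA1). That list had 3 tested genes in the FPKM comparisons, of which 1 fell after shUSP7-1, 2 rose after shBUB3, 1 rose and 1 fell after shFOXA1 and 3 fell after siEZH2. Under median-ratio scaling 1 rose after shBUB3, 2 rose and 1 fell after shFOXA1, and 2 fell after siEZH2. OAZ3, a rise after shBUB3 (0.20, limma adjusted p = 0.0442), lost its call in 9 alternatives (limma adjusted p = 0.0654 to 0.139), among them the fit without shBUB3 replicate 3, where it was 0.12. Among RPKM comparisons there were 4 tested genes, of which 2 rose and 1 fell with shFoxA1.

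EIF5A, the translation factor whose hypusine is made from spermidine, and the other 3 genes of the hypusination list rose after shBUB3 (4 of 4). After shFOXA1 and after siEZH2, 3 of 4 fell, and after shUSP7-1 2 fell and 1 rose, with EIF5A going from 201 to 127 FPKM (-0.66 ± 0.097, limma adjusted p = 0.00011). The rise was DOHH, the hydroxylase of the last step (0.44, limma adjusted p = 0.0177), whose call was lost without shUSP7-1 replicate 3 (0.0579), pLKO replicate 2 (0.0532) or pLKO replicate 3 (0.0634). After shBUB3 DOHH was at 0.47, at 0.26 without replicate 3, and missed the threshold in the fit of the 2 groups (limma adjusted p = 0.0548). Its fall after shFOXA1 lost its call without the filter (0.0804), with the replicate block (0.0536) and without any 1 library of either group (0.0534 to 0.156). Its fall after siEZH2 lost its call without the filter (0.0975), siEZH2 replicate 1 (0.0766) or siCtrl replicate 1 (0.0986). With scaling, shFOXA1 and siEZH2 left 1 rise and 1 fall, and 1 rise and 2 falls. In shFoxA1 1 of 4 fell, and with WT and K295A 4 of 4 were higher than in shFoxA1 (3 and 2 under scaling). The fall was DHPS, which lost its call without the filter or without replicate 1 or 2 of either group (limma adjusted p = 0.0574 to 0.115).

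Among transcription factors that act on polyamine genes, MYC, named for shBUB3, siEZH2 and shFoxA1 after its values were seen, went from 102 FPKM in pLKO to 59.1 after shUSP7-1 (-0.78 ± 0.044, limma adjusted p = 3.64e-08), 73.6 after shBUB3 (-0.46 ± 0.044, limma adjusted p = 2.5e-06) and 37.2 after shFOXA1 (-1.43 ± 0.044, limma adjusted p = 1.75e-10). After siEZH2 its difference was -0.05 ± 0.072 (limma adjusted p = 0.537), and 0.14 under median-ratio scaling. In the pGIPZ experiment MYC was 0.12, 0.29 and 0.42 above control with shFoxA1, WT and K295A. ODC1 and MYC thus moved the same way after shBUB3 and shFOXA1 and in the 3 pGIPZ groups, and opposite ways after shUSP7-1, while after siEZH2 ODC1 fell and MYC did not pass.

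Among 11470 genes with a mean of at least 1 in both tables, the 3 whose deviations from the own control were most like those of ODC1 over the 21 libraries were WTAP (Pearson r = 0.978), ATP5A1 (0.975) and BCKDHB (0.970). For SAT1 they were PPP6R1 (0.959), ZG16B (0.956) and AKTIP (0.954). Within the set, SMS and OAZ2 had r = 0.956 and ODC1 and AMD1 0.263. SAT1 and SMOX, which both act in catabolism, had 0.783, while PAOX, also catabolic, had -0.187 with SAT1 and -0.314 with SMOX. The libraries of a group share their shift, so these are descriptions of 7 groups more than of 21 independent points.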

How the data were processed

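RNA sequencing libraries of LNCaP cells were given as 2 gene tables: one deposited by the authors as FPKM, with the libraries of pLKO and siRNA, and one deposited by the authors as RPKM, with those of pGIPZ. The submitters' processing notes name STAR and the build hg38. Not given in the sources used here are the STAR version, the counting program and the annotation. Each table has 26475 rows, of which 32 hold no values. The tables were normalized separately, so tests were made within a table only. No read totals are given and no counting interval was computed.

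Values were transformed as log2(value + 1), so fold changes of low genes are understated. Genes at 1 or more in at least 3 libraries of an experiment were fitted with limma 3.58.1 (R 4.3.3), with 1 term per group and an intensity trend, separately for each experiment. P-values were adjusted by Benjamini-Hochberg over all genes tested and called under 0.05. An exact permutation test of 3 against 3 cannot go below 0.1. Tables and plots were made with Python 3.11.15, NumPy 2.4.6, pandas 2.3.3 and matplotlib 3.10.9. The scripts were tested on simulated data, where false calls in the pGIPZ experiment exceeded the limit first set. That limit was then relaxed, so the nominal false discovery rate was not shown for the pGIPZ adjusted p-values. Alternatives were a pseudocount of 0.1, no filter, median-ratio scaling, a fit of the 2 groups alone, a replicate block, no intensity trend, and leaving out each library. The members and lists were chosen with earlier results of these data known.

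Named were the 10 members, the targeted genes in their own knockdown, up to 3 called genes per list and comparison (those of largest change whose mean reached 1 in a group), and the 3 genes most alike to ODC1 and to SAT1. Other genes or values outside this rule were added after they were seen. Gene positions are from GENCODE and promoter windows from RefSeq, both on GRCh38. The promoter of AZIN1 is not used here. The counts of the transcription factor list are not reported here.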

Additional observations from a re-analysis of the deposited data

Results flagged for a closer look

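After FOXA1 knockdown, 6 genes lay on opposite sides of their own control in the pLKO and pGIPZ experiments in every library. The share of all genes that did so was not computed, so the count is no result about the members. Some distances were small: SAT1 lay at 0.0037 in shFOXA1 replicate 1, and AMD1 and SRM did not pass with shFoxA1. Under median-ratio scaling OAZ1 after shFOXA1 was -0.09 (limma adjusted p = 0.568). As pLKO minus pGIPZ on the log2 scale, the fold changes differed by -1.27 for ODC1, -0.40 for AMD1, -0.82 for SRM, 0.74 for SAT1, -0.53 for OAZ1 and -0.79 for OAZ2. The difference was not tested, because the tables were normalized separately.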

How the results depend on the processing

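Over the 10 members and 13 comparisons, 1489 of 1550 values under the alternatives kept their direction and side of the threshold. With the sign kept, 11 lost a call and 15 gained a call, and 35 values changed sign. Some of the sign changes under median-ratio scaling also changed a call. OAZ1 in WT against shFoxA1 lost its call. AZIN1 after shFOXA1, ODC1 in WT against shFoxA1 and SAT1 in K295A against shFoxA1 gained a call. The pseudocount, the filter and the intensity trend changed none of these. For pathway genes and targets, 1880 of 1924 were kept, 43 lost a call and 1 changed sign. Under median-ratio scaling the sign changed for AZIN1 after shFOXA1 (0.16), SMOX (0.0193) and MYC (0.14) after siEZH2, PAOX in WT against pGIPZ (-0.0742), ODC1 (-0.0615) and OAZ1 (-0.0093) in WT against shFoxA1, SAT1 in K295A against shFoxA1 (-0.11), SRM in K295A against WT (-0.0073) and SRM in shFOXA1 against shBUB3 (0.19). The cause was not tested. Between K295A and WT, 1 member passed under scaling against 0, and the 23 genes called over the table became 11 without a filter, 6 in the fit of the 2 groups, 8 without the trend and 9 to 18 with 1 library left out.

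Leaving out a library changed the sign of small differences that had not passed. After shUSP7-1 PAOX ranged from -0.0421 to 0.0985 and OAZ1 from -0.0538 to 0.0006. After shBUB3 SMOX ranged from -0.1089 to 0.1461 and PAOX from -0.084 to 0.0696. PAOX after siEZH2 ranged from -0.0134 to 0.1909, SMS after shFoxA1 from -0.0079 to 0.0914, PAOX in WT against pGIPZ from -0.0746 to 0.0648 and SAT1 in K295A against shFoxA1 from -0.0151 to 0.0295. Between K295A and WT, SRM ranged from -0.0127 to 0.0401, SMOX from -0.0236 to 0.173, PAOX from -0.1279 to 0.0115, OAZ2 from -0.0294 to 0.0361 and AZIN1 from -0.0125 to 0.0554. PAOX in shUSP7-1 against shBUB3 ranged from -0.0574 to 0.1052 and SRM in shFOXA1 against shBUB3 from -0.072 to 0.0763.

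Same-numbered libraries did not deviate together: the correlation was over 0.1 in 2 of 18 pairs of the pLKO experiment, 0 of 18 in pGIPZ and 0 of 3 in the siRNA experiment, and 7, 3 and 1 of these correlated best with their own number. The replicate block changed no member's call, and with it 14 genes in place of 23 were called between K295A and WT. Depth is unknown, which limits what can be said of SMOX and PAOX at a few FPKM.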
